A study of Mus musculus with 6 samples.

Results

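Toll-like receptors detect molecules of microbes and of damaged cells, and most of them signal through the adaptor MyD88 to NF-kB. TLR2 and TLR4 act at the cell surface, where CD14 delivers ligands to them, and TLR7 and TLR13 read RNA inside endosomes. NLRP3 is the sensor of an inflammasome, a complex in which caspase-1 is activated and matures IL-1 family cytokines. Caspase-4 of the mouse, also called caspase-11, senses lipopolysaccharide in the cytosol, and both caspases cleave gasdermin D, which then forms pores in the cell membrane. In the central nervous system these genes are known mainly from microglia and infiltrating myeloid cells.

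The genes examined were Tlr2, Tlr4, Tlr7, Tlr13, Cd14, Myd88, Nlrp3, Casp1, Casp4 and Gsdmd, chosen by name as receptors, co-receptor, adaptor and inflammasome components. All 10 were among the 19449 genes of the single-cell table and the 55351 genes of the bulk table. The single-cell libraries came from the spinal cords of C57BL/6 mice with experimental autoimmune encephalomyelitis (EAE), an inflammatory demyelinating disease, here induced by transferred CD4+ T cells that recognise the myelin protein MOG and had been polarized with IL-23. Young recipients (8 to 12 weeks) and middle-aged recipients (40 to 44 weeks) were sampled on day 6 and on day 10 after transfer, and CD45+ cells of 4 pooled cords made up each of the 4 libraries. Each combination of age and day is thus 1 library, all mice shown carried transferred T cells, and the day cannot be told apart from any handling that went with it. The bulk libraries, 1 per age, came from microglia of untreated young and middle-aged mice sorted as CD45int CD11b+ cells, with no EAE and no transfer.

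The single-cell table held 38057 cells in 16 deposited clusters, with 8315 to 10026 cells and 57337626 to 69859331 UMIs (unique molecular identifiers, counted molecules) in a library. Between libraries, 154 cell barcodes recurred. All 9 microglia markers were over 2-fold higher in cluster 10 than in other cells, and it is called microglia-like. Cluster 1 was monocyte/macrophage-like, with 9 of 9 markers over 2-fold higher. Cluster 0 is called neutrophil-like, although only 4 of its 9 markers passed 2-fold, none was among its 10 leading genes and the median of its neutrophil markers (0.24, log2) lay under that of the oligodendrocyte list (0.60), none of which passed 2-fold. The summed neutrophil markers were at 38150 to 50654 CPM there and at 10324 or less in clusters 10, 8 and 1. Cluster 8 held all 9 microglia markers over 2-fold, but its leading genes held none of them, and it is left without a name. Its summed monocyte/macrophage markers were 2138 and 2813 CPM on day 6 (young, middle-aged) and 31371 and 39802 CPM on day 10. Clusters 3 and 6 were also neutrophil-like, cluster 5 monocyte/macrophage-like, cluster 7 dendritic cell-like, cluster 2 T cell-like, cluster 4 B cell-like and cluster 9 NK-like.

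The genes lie on 7 chromosomes (GRCm38, GENCODE vM21). Tlr2 spans chr3:83836272-83841767, Tlr4 chr4:66827584-66930284, Tlr7 chrX:167304929-167330558 and Tlr13 chrX:106143204-106160493. Myd88 spans chr9:119335934-119341411 and overlaps Acaa1a on the opposite strand and Slc22a14 on its own, so its counts could hold reads of these neighbours. Nlrp3 spans chr11:59541568-59566956 and Gsdmd chr15:75862327-75867408. Casp1 at chr9:5298517-5307265 and Casp4 at chr9:5308828-5336783 are neighbouring paralogues.

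Promoter windows were examined for 6 of the 10 genes, and 4 are shown. Of the 6, Casp4, Nlrp3 and Myd88 were those called lower on day 10 in clusters 0, 1 and 8 alike, and Tlr2 was the one called in cluster 0 alone. Cd14, also called in these 3 clusters, and Tlr7, also called in cluster 0 alone, are not among the 6. Each is the part of the 250 bases before a RefSeq start (GRCm38.p6) that lies outside the annotated exons of these genes, written 5′ to 3′ on the gene's strand; the RefSeq start of Myd88 lies inside the GENCODE span of the gene. Capitals mark matches, on either strand and with overlaps merged, to the NF-kB consensus in Casp4, Nlrp3 and Tlr2, and to an interferon-response motif (ISRE-like: GAAA, 2 free bases, GAAA) in Myd88.
Casp4, chr9:5308599-5308827, plus strand: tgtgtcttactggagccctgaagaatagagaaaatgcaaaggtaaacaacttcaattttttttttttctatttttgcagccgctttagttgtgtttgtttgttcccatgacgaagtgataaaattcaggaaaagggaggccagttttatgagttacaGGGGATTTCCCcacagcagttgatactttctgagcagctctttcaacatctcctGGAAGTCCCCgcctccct
Nlrp3, chr11:59541319-59541567, plus strand: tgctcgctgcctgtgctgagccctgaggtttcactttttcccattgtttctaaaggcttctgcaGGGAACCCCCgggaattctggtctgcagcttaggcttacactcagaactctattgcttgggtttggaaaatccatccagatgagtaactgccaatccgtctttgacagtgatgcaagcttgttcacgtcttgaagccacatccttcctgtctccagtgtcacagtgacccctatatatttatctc
Tlr2, chr3:83841768-83841858, minus strand: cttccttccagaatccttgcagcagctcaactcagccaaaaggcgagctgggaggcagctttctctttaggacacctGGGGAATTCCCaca
Myd88, chr9:119340042-119340268, minus strand: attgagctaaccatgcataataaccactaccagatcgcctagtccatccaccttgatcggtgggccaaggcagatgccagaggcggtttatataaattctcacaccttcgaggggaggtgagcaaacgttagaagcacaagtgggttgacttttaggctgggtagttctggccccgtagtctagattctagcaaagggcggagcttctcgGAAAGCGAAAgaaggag

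The NF-kB consensus was present in 7.25% of 32851 RefSeq promoter windows of 250 bases, and the ISRE-like motif in 2.98%. The NF-kB consensus was found in those of Casp4, Tlr2 and 1 of 2 Nlrp3 windows, and not in those of Tlr13, Myd88 and Casp1. The matches are letters in a window and do not show binding.

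Levels are given as summed UMIs of a cluster and library divided by their total and scaled to counts per 1000000 (CPM), with 1 value per library and no test between clusters, since the clusters were made from the same cells. The surface receptor Tlr2 had its highest mean in neutrophil-like cluster 0, at 612 and 602.5 CPM on day 6 and 302.6 and 317.6 CPM on day 10 (young, then middle-aged, as in all such lists). Microglia-like cluster 10 followed, at 239.2 and 269.4 CPM on day 6 and 358.2 and 388.5 CPM on day 10. The order of these clusters thus differed between the days, cluster 0 being higher on day 6 and cluster 10 on day 10. In monocyte/macrophage-like cluster 1, Tlr2 lay between 233.2 and 252.4 CPM in all 4 libraries. T cell-like cluster 2 held 3.25 to 5.54 CPM and B cell-like cluster 4 held 6.79 to 8.04 CPM.

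Tlr4, the lipopolysaccharide receptor, was also highest in cluster 0, at 186.3 and 200.8 CPM on day 6 and 81.5 and 105.2 CPM on day 10. Neutrophil-like cluster 3 overlapped that range with 33.4 to 199.3 CPM, and cluster 1 lay at 40.8 to 71.6 CPM. Its co-receptor Cd14 (chr18:36725067-36726798) showed the same leading clusters, with 688.1 to 5057 CPM in cluster 3 and 1630 to 2907 CPM in cluster 0, and these ranges overlap. Cluster 10 held 831.2 and 824.3 CPM of Cd14 on day 6 and 472 and 559.5 CPM on day 10. Cluster 4 held 10.2 to 49.8 CPM of Cd14, the highest of these in the middle-aged day 6 library.

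The endosomal receptors had different leading clusters. Tlr7, which reads single-stranded RNA, was highest in cluster 10, at 75.1 and 76.4 CPM on day 6 and 73.7 and 69.55 CPM on day 10. No other cluster reached this range. Cluster 8 came next at 28.3 to 39.9 CPM and overlapped cluster 1 (22.7 to 30.1 CPM), which overlapped cluster 5 (17.9 to 25.9 CPM). B cell-like cluster 4 held 16.4 to 24.1 CPM of Tlr7, against 0.433 to 1.10 CPM in T cell-like cluster 2. Tlr13, which reads bacterial ribosomal RNA, was highest in cluster 0, at 206.9 and 208.2 CPM on day 6 and 166.4 and 168.5 CPM on day 10, and no other cluster reached this range. Cluster 3 was next by mean (84.8 to 147.8 CPM), and unnamed cluster 14 came closest in a single library, with 165.5 CPM from 18 UMIs (95% interval 98.1 to 261.6) in the middle-aged day 6 library.

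Among the inflammasome genes, the sensor Nlrp3 led in the neutrophil-like clusters, at 682.2 and 620.3 CPM on day 6 and 370.7 and 448.8 CPM on day 10 in cluster 0, within the 298.9 to 940.5 CPM of cluster 3. In cluster 10 it was at 175.1 and 130.1 CPM on day 6 and 71.7 and 97.4 CPM on day 10. The day 6 libraries were the higher ones in both clusters. Casp4 was at 595.8 and 639.2 CPM on day 6 and 270.8 and 304.2 CPM on day 10 in cluster 0. In cluster 1 it was at 185.4 and 155.5 CPM on day 6 and at 51.4 and 49.4 CPM on day 10, and cluster 3 spanned 36.1 to 649.2 CPM. Casp1 was spread more evenly, with its highest mean in monocyte/macrophage-like cluster 5 (62.0 to 149.9 CPM), which overlapped cluster 0 (47.05 to 122.2 CPM) and cluster 1 (53.2 to 115.4 CPM). Gsdmd, the pore-forming substrate, had its highest mean in cluster 10, at 99.5 and 124.6 CPM on day 6 and 120.1 and 113.4 CPM on day 10, overlapping cluster 1 at 82.8 to 120.9 CPM. In cluster 0 Gsdmd was at 59.7 to 72.4 CPM.

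The adaptor Myd88 had means of 183.6 CPM in cluster 3 and 161.4 CPM in cluster 0, with overlapping ranges. T cell-like cluster 2 held Casp1 (40.9 to 53.1 CPM), Casp4 (35.1 to 74.7 CPM), Myd88 (20.2 to 38.2 CPM) and Gsdmd (17.2 to 24.8 CPM), while Cd14 was at 9.19 to 18.8 CPM there. In the young day 6 library the 53.8 CPM of Casp4 in cluster 2 stood beside 10.9 CPM of Cd14, whereas in cluster 0 the 595.8 CPM of Casp4 stood beside 2639 CPM of Cd14. The counts of these genes were thus not in 1 ratio in the T cell-like and neutrophil-like clusters.

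**Figure D1:**
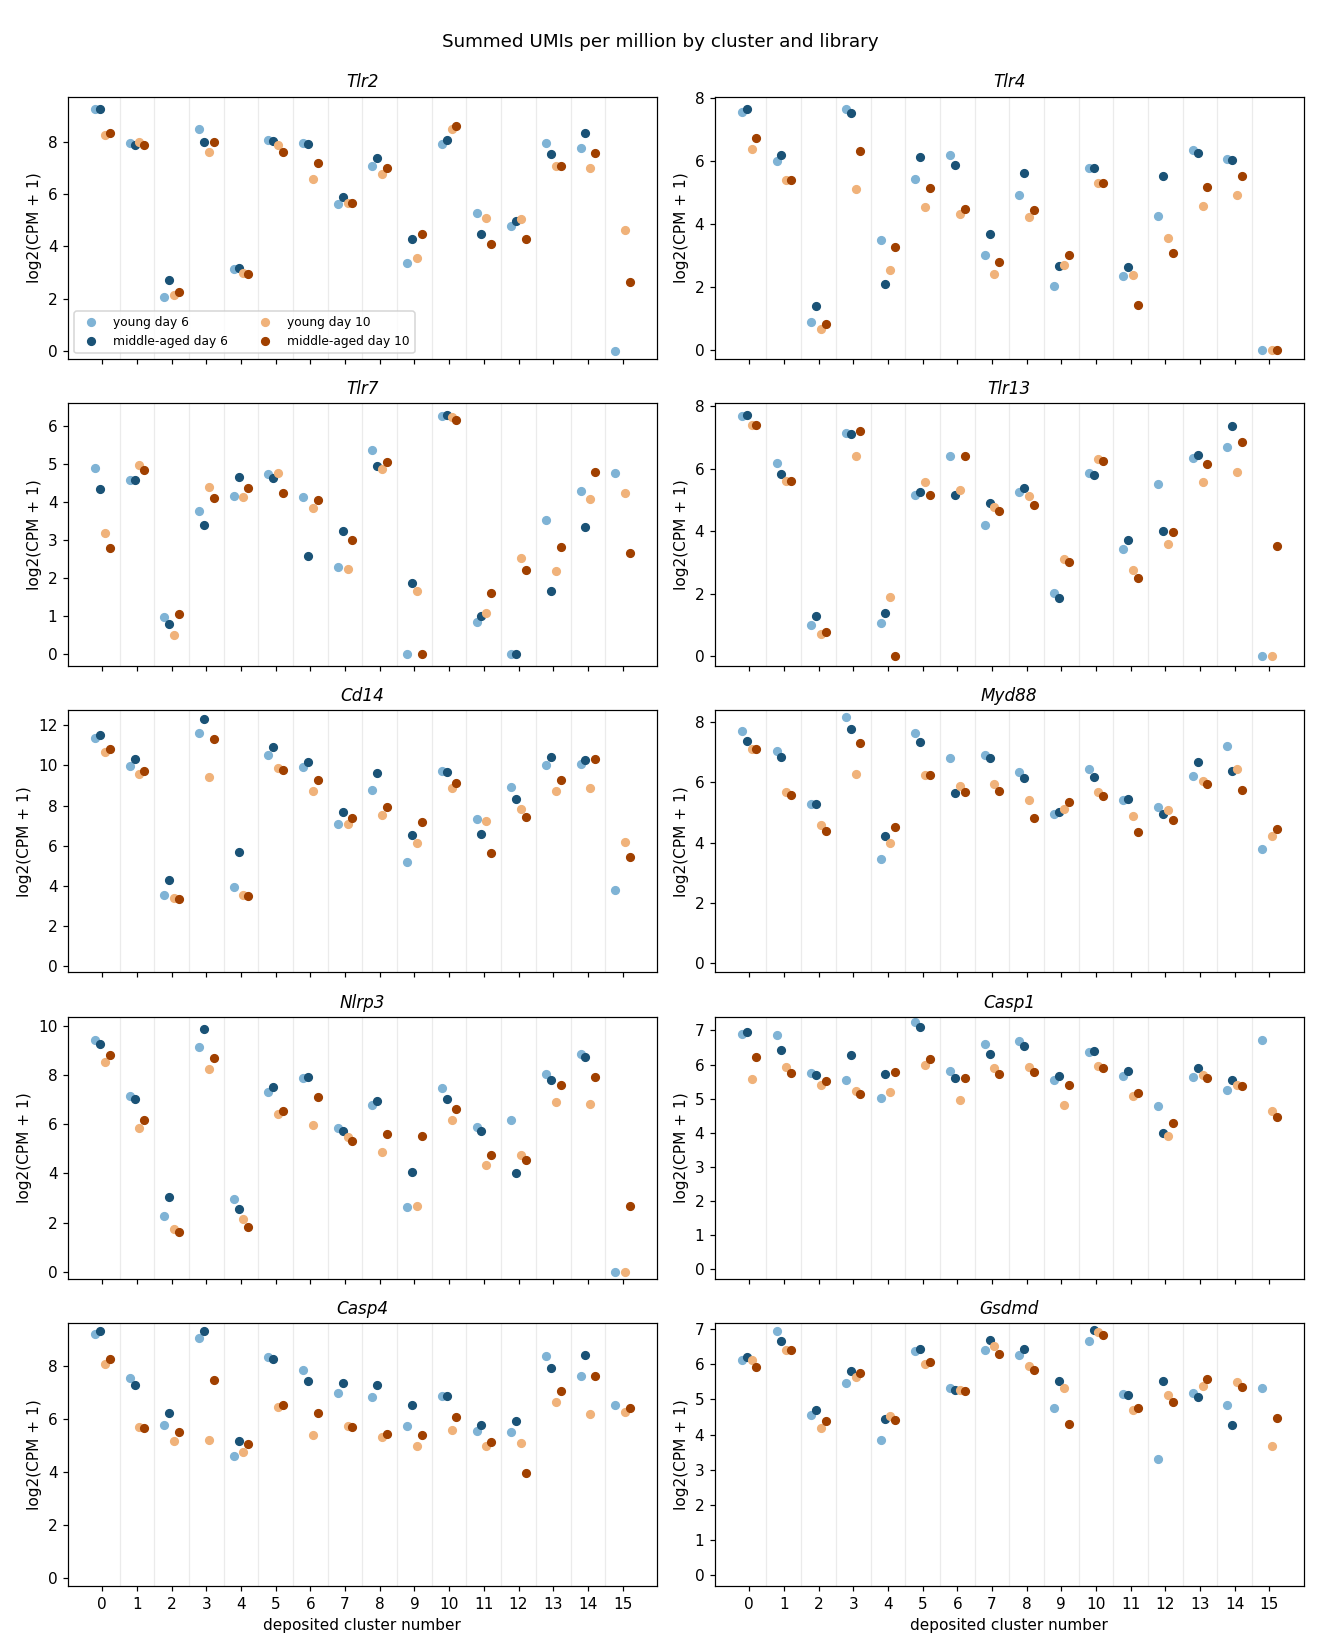
Level of each gene, as log2(CPM + 1), in each of the 16 deposited clusters, with 1 point per library (colours give age and day; a point is left out where the cluster held under 50000 UMIs). Tlr7 stands apart in cluster 10 at 69.55 to 76.4 CPM, and Casp4 points of day 10 lie under those of day 6 in most clusters.

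Depth differs between clusters, with median UMIs per cell of 6931 to 10000 in cluster 10, 2193 to 2365 in cluster 0, 4715 to 6225 in cluster 2 and 2402 to 2997 in cluster 4. The share of cells with a UMI was therefore also taken after each cell was thinned to 1000 UMIs. Thinned, Cd14 was found in 73.9% and 75.1% of cluster 0 cells on day 6 and in 55.8% and 57.7% on day 10, against 67.2% to 87.0% unthinned. In the T cell-like cluster, which should lack it, the thinned share was 1.08% to 1.59%, and in the B cell-like cluster 0.926% to 4.89%. Thinned, Casp4 had a UMI in 39.7% and 41.8% of cluster 0 cells on day 6 and in 19.9% and 22.6% on day 10, and in 2.66% to 7.07% of T cell-like cells, a range that overlaps that of cluster 10 (2.77% to 9.77%). Tlr2 was found in 19.1% and 22.8% of cluster 10 cells on day 6 and in 25.2% and 27.1% on day 10. At this depth the exact binomial 95% intervals of all 4 libraries overlapped. The share ran from 31.6% to 47.0% when cells were thinned to 2000 UMIs and from 60.2% to 83.5% unthinned.

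In cluster 10, Tlr7 was found in 6.93% to 11.3% of cells after thinning and in 40.5% to 53.2% without thinning. Its thinned share was 1.48% to 3.26% in B cell-like cells. For Casp1, the thinned share was 5.72% to 8.02% in cluster 10, 3.65% to 5.08% in T cell-like cells and 3.70% to 7.07% in B cell-like cells. The intervals of these clusters overlapped within each library, so no order is read from them. Of cluster 8, 194 of 249, 331 of 364, 630 of 668 and 704 of 776 cells reached 1000 UMIs, and all these intervals cover counting error only.

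**Figure D2:**
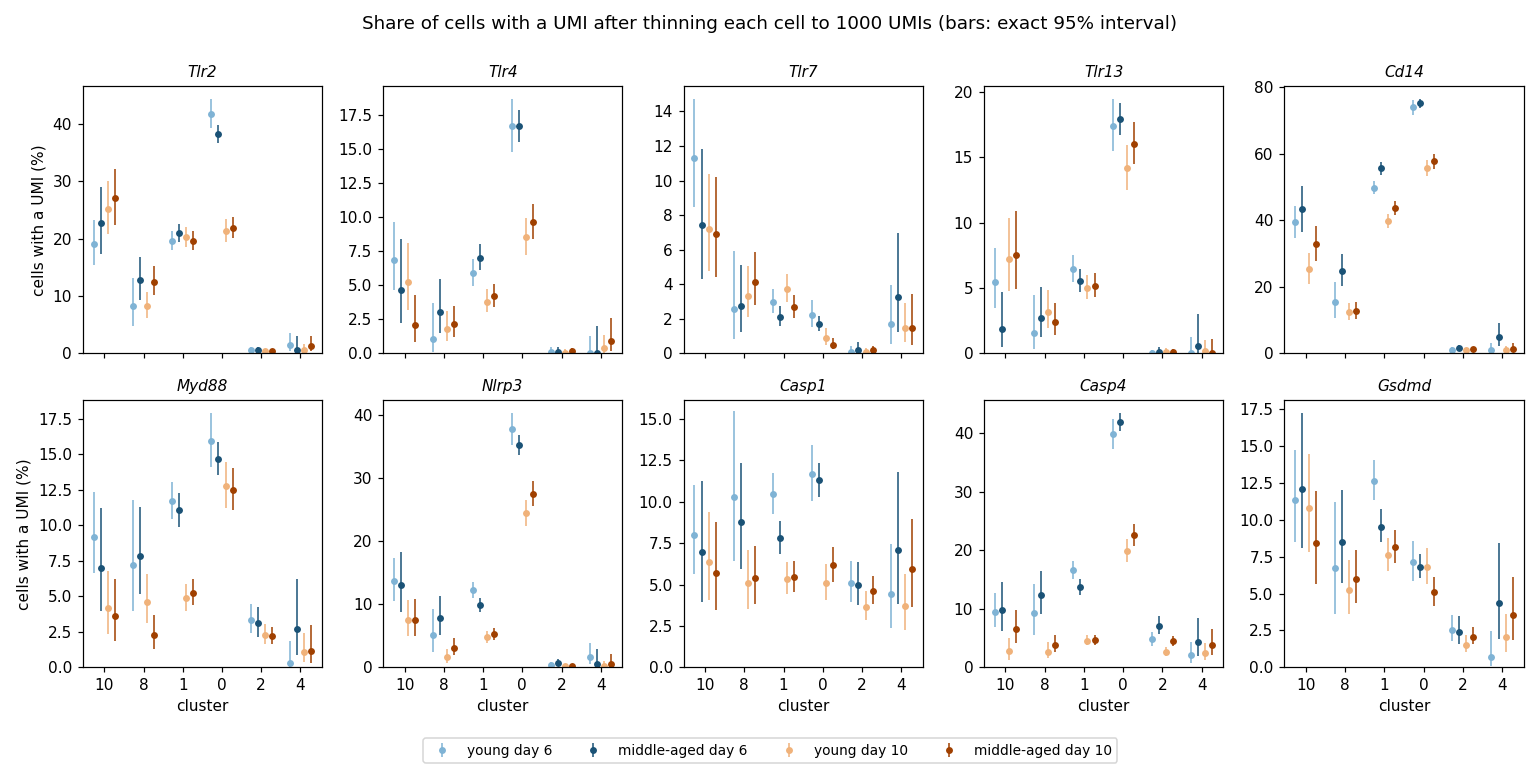
Share of cells with at least 1 UMI of each gene after every cell was thinned to 1000 UMIs, in clusters 10 (microglia-like), 8 (unnamed), 1 (monocyte/macrophage-like), 0 (neutrophil-like), 2 (T cell-like) and 4 (B cell-like), 1 point per library with exact binomial 95% intervals. Cd14 is at 55.8% or more in cluster 0 and at 1.59% or less in cluster 2.

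The first comparison was that of the days. All 10 genes were lower on day 10 than on day 6 in neutrophil-like cluster 0, 8 of 10 in monocyte/macrophage-like cluster 1, 4 of 10 in cluster 8 and 1 of 10 in microglia-like cluster 10, by edgeR's quasi-likelihood test on summed UMIs of 4 libraries with age as a term (Benjamini-Hochberg adjusted p under 0.05 over all genes tested). None was called higher. The background differed as strongly between clusters: 27.2% of 9593 genes were called lower in cluster 0, 15.2% of 12222 in cluster 1, 6.90% of 8371 in cluster 8 and 3.46% of 10562 in cluster 10, and 27.2%, 14.7%, 6.50% and 3.18% were called higher. The median log2 fold change of the 10 genes was -1.59, -0.76, -0.63 and -0.33 in clusters 0, 1, 8 and 10, beside 0.08, 0.03, -0.0077 and -0.0013 for all genes. With 2 libraries a day there is 1 residual degree of freedom. It holds any difference of the age effect between the days together with the spread between pools. As each library is a pool, the spread between mice was not estimated, and the p-values do not measure it. Age and day together leave no spread to estimate in 3 libraries. The fits without 1 library therefore held day as their sole term, so that the age term was lost as well, and took the spread from the 2 libraries of the complete day, which differ in age. The lone library of the other day is assumed to vary like them, and a call lost or gained there cannot be put down to the library alone.

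In cluster 0, Casp4 fell by 1.86 ± 0.13 (log2 fold change ± SE, edgeR adjusted p = 4.20e-08), and Tlr2 by 1.73 ± 0.13 (8.10e-08). Tlr4 fell by 1.82 ± 0.13, Casp1 by 1.77 ± 0.15 and Tlr7 by 2.51 ± 0.22, the latter from 28.5 and 19.1 CPM to 8.06 and 5.92 CPM. Gsdmd changed least, by -0.89 ± 0.14 (adjusted p = 0.000129). These values rest on TMM scaling, under which the libraries of day 10 had factors of 1.31 and 1.29 and those of day 6 0.79 and 0.75. The 50 most abundant genes of cluster 0 took 38.2% and 40.3% of its UMIs on day 6 and 31.9% and 32.6% on day 10. On plain totals the median of all genes moved to 0.84, with 5916 genes called higher and 1044 lower in place of 2605 and 2613. On that scale Gsdmd was no longer called (-0.13, from 67.9 and 72.4 CPM to 68.8 and 59.7 CPM), and the other 9 genes were still called lower, with Casp4 at -1.10, Tlr2 at -0.97 and Tlr13 at -0.31. Relative to the median gene, Casp4 was at -1.94 under both scalings. Summed monocyte/macrophage markers of cluster 0 went from 3850 and 2998 CPM on day 6 to 6618 and 6926 CPM on day 10 and microglia markers from 80.5 and 59.2 CPM to 231.5 and 221.8 CPM. The part of the monocyte/macrophage markers was not tested, and without cells holding microglia or lymphocyte markers 10 of 10 genes were still called lower, Casp4 at -1.87.

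In cluster 1, Casp4 (-1.92 ± 0.19, edgeR adjusted p = 1.12e-05), Myd88 (-1.50 ± 0.19, 6.22e-05) and Nlrp3 (-1.24 ± 0.20, 0.000399) fell most. Nlrp3 was at 142.9 and 127.6 CPM on day 6 and at 57.0 and 71.9 CPM on day 10, and Myd88 at 132.3 and 113.1 CPM and then 49.9 and 47.1 CPM, so that the libraries of the days did not overlap. Casp1 (-0.99 ± 0.19), Tlr4 (-0.88 ± 0.19), Cd14 (-0.64 ± 0.21), Gsdmd (-0.58 ± 0.19) and Tlr13 (-0.57 ± 0.18) were also called lower. Tlr2 (-0.16 ± 0.20) and Tlr7 (0.18 ± 0.18) did not pass the test. The calls of Casp4, Myd88 and Nlrp3 were kept under all 10 alternatives. Without the young day 10 or the middle-aged day 10 library, the calls of Tlr4 (-0.87 in both), Tlr13 (-0.56 and -0.55), Cd14 (-0.57 and -0.73), Casp1 (-1.07 and -0.90) and Gsdmd (-0.57 and -0.56) were lost, and that of Cd14 also without the middle-aged day 6 library (-0.40). On plain totals, where the median gene was at 0.19 and 2435 genes were called higher and 1301 lower in place of 1802 and 1852, Tlr13, Cd14 and Gsdmd were not called. With no filter on low counts the same 3 genes were not called, and Tlr13 and Gsdmd also lost their calls with DESeq2 and when cells holding markers of other lineages were left out, which kept 687 of 2166 cells of the young day 10 library.

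In cluster 8, Casp4 (-1.43 ± 0.22, edgeR adjusted p = 0.000132), Cd14 (-1.19 ± 0.19, 0.000152), Nlrp3 (-1.35 ± 0.23, 0.000372) and Myd88 (-0.86 ± 0.24, 0.0213) fell. Cd14 went from 430.1 and 797 CPM to 187.2 and 242.9 CPM and Casp4 from 112.1 and 154.5 CPM to 39.1 and 42.0 CPM. Tlr7 was at 0.10 ± 0.28 and Gsdmd at -0.19 ± 0.23, neither past the test. Summed monocyte/macrophage markers of this cluster were higher on day 10 than on day 6 (values above), and their part in these differences was not tested. When cells with markers of T, B or NK cells or neutrophils were left out, Cd14 (-0.72) and Nlrp3 (-1.46) were still called. Casp4 (-0.64) and Myd88 (-0.65) were not, and Tlr2 was called higher (0.68). Cells with monocyte/macrophage markers were kept in that fit. Tlr4 (-0.75 in all cells) and Tlr13 (-0.09) were both at 0.26 there, past the test in neither fit. Myd88 lost its call with DESeq2 (-0.85) and without the age term (-0.81) as well. Without the middle-aged day 6 library Cd14 was at -0.67, still called. Without the middle-aged day 10 library Myd88 (-0.49) was not called, and without the young day 6 library Tlr4 (-1.06) was also called lower. On plain totals the median gene was at -0.29, 253 genes were called higher and 962 lower in place of 544 and 578, and Tlr4 (-1.03) and Casp1 (-0.79) were also called.

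In microglia-like cluster 10 Casp4 was the lone gene called lower (-0.90 ± 0.19, edgeR adjusted p = 0.0150), from 115.2 and 115.4 CPM on day 6 to 46.7 and 66.5 CPM on day 10. Nlrp3 (-0.71 ± 0.22, adjusted p = 0.0806) and Myd88 (-0.55 ± 0.18, 0.0892) did not pass, nor did Tlr2 (0.71 ± 0.23, 0.0892) and Tlr13 (0.61 ± 0.18, 0.0627), whose day 10 libraries were both above the day 6 ones. Tlr13 was at 57.0 and 55.0 CPM on day 6 and at 78.5 and 75.1 CPM on day 10. With no filter on low counts Tlr13 (0.61) was called higher and Nlrp3 (-0.70) lower, beside Casp4 (-0.89). The call of Casp4 was lost with DESeq2 (-0.90), without the young day 10 library (-0.65) and without cells holding markers of other lineages (-0.83), and in each of these fits no gene of the 10 was called. On plain totals, with the median gene at -0.15 and 288 genes called higher and 744 lower in place of 336 and 365, Nlrp3 (-0.86) and Myd88 (-0.70) were also called lower. Without the middle-aged day 6 library Tlr2 (0.82) and Tlr13 (0.61) were called higher, and Cd14 (-0.51), Myd88 (-0.66) and Nlrp3 (-0.88) lower. Without the young day 6 library Tlr2 (0.59) was called higher and Cd14 (-0.56) lower. Summed monocyte/macrophage markers of cluster 10 were 3475 and 3687 CPM on day 6 and 16852 and 21054 CPM on day 10. Their part was not tested, and no alternative left out cells by these markers.

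**Figure D3:**
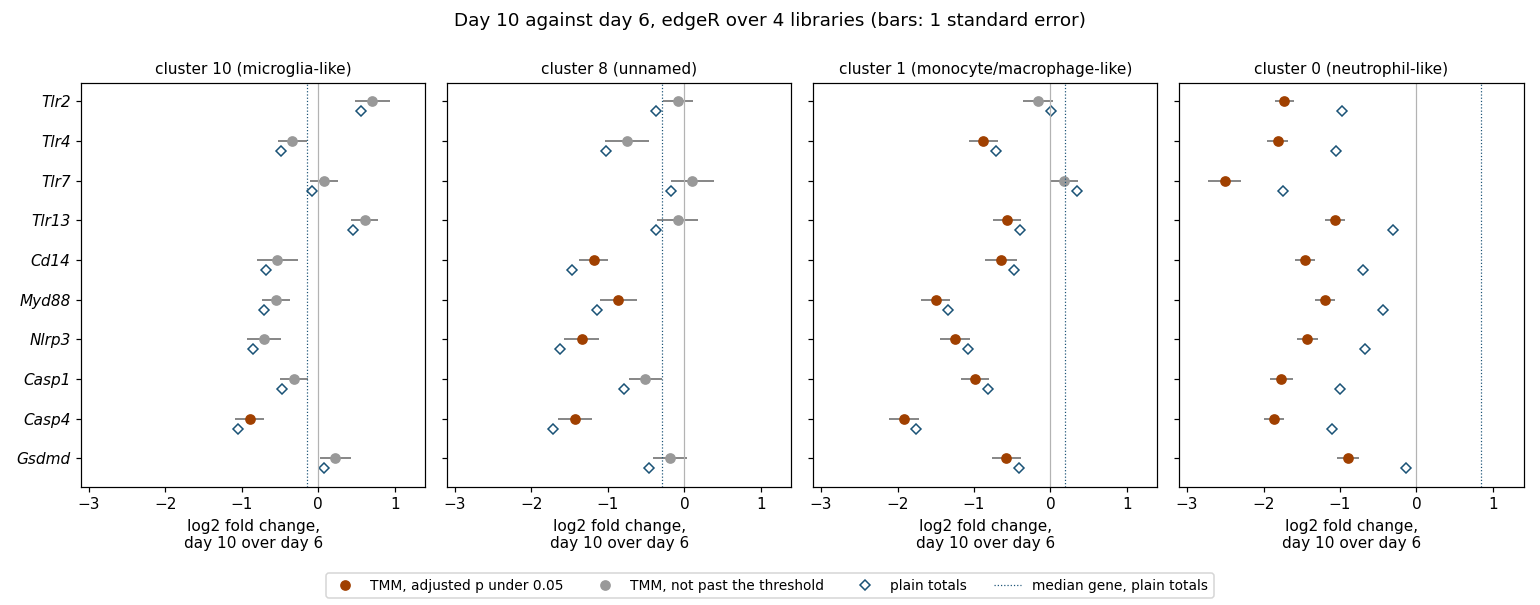
Log2 fold change between day 10 and day 6 for each gene in 4 clusters, from edgeR with TMM scaling (filled circles, bars of 1 standard error, dark where adjusted p was under 0.05) and with plain totals (open diamonds). The dotted line is the median gene on plain totals, which lies at 0.84 in cluster 0, where all 10 filled circles are between -2.51 and -0.89.

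The direction of the difference was also read over more clusters, those above included. Over the 15 clusters with 50000 UMIs in every library, Casp4 was lower on day 10 at both ages in 14 and higher at both in 0, on plain CPM. Nlrp3 was lower at both ages in 13 clusters, and Tlr4, Cd14 and Myd88 in 12 each, whereas the median gene with 1000 or more UMIs was lower in 4 and higher in 5. Tlr7 was lower in 4 clusters and higher in 4, and Gsdmd lower in 6 and higher in 2. Only the sign was counted, with no interval and no least count. In cluster 12 Casp4 had 5 and 69 UMIs (young, day 6 and day 10) and 4 and 4 UMIs (middle-aged). Both intervals of that cluster include 0. In neutrophil-like cluster 3 Casp4 went from 536.4 to 36.1 CPM in young and from 649.2 to 174.8 CPM in middle-aged mice. In cluster 5 it went from 323.4 to 87.0 CPM and from 308.1 to 92.7 CPM. All clusters share the same 4 libraries, so they are not separate replicates of the days.

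Of 40 other genes of the pathway, 35 were tested in cluster 0, 40 in cluster 1, 32 in cluster 8 and 35 in cluster 10. On day 10, 18 were called lower and 5 higher in cluster 0, 13 lower and 1 higher in cluster 1, 8 lower in cluster 8 and 2 lower in cluster 10. Of all genes tested, 27.2%, 15.2%, 6.90% and 3.46% were called lower in clusters 0, 1, 8 and 10. The shares called higher were 27.2%, 14.7%, 6.50% and 3.18%. Median log2 fold changes of the pathway list were -0.62, -0.39, -0.32 and 0.08, beside 0.08, 0.03, -0.0077 and -0.0013 for all genes. In cluster 0 the counts of calls rested on the scaling: on plain totals 11 were called lower and 13 higher, with a median of 0.14. The median of all genes was 0.84 on that scale, so the list lay under the median gene with either scaling. Plain totals gave 12 lower and 2 higher in cluster 1, 10 lower in cluster 8 and 3 lower in cluster 10. The median gene was then at 0.19, -0.29 and -0.15 in these clusters. Calls over all genes on plain totals are given above by cluster.

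Mefv, which encodes the inflammasome sensor pyrin, was the sole gene of the 40 called in all 4 clusters, with -2.38 ± 0.14, -2.20 ± 0.21, -2.77 ± 0.32 and -2.23 ± 0.38 in clusters 0, 1, 8 and 10, and -1.62, -2.03, -3.04 and -2.38 on plain totals. Its counts were low in cluster 10, with 57 and 54 UMIs on day 6 and 16 and 9 on day 10. Cluster 8 held 26 and 100 UMIs of Mefv on day 6 and 17 and 18 on day 10. In cluster 0 it was at 391.7 and 422.5 CPM on day 6. The substrates of caspase-1 were called lower in clusters 0, 1 and 8 but not in cluster 10, where Il1b was at 0.05 ± 0.29 and Il18 at -0.37 ± 0.23 (edgeR adjusted p = 0.943 and 0.390). Il18 was at -3.80 ± 0.21 in cluster 0, -2.64 ± 0.19 in cluster 1 and -0.88 ± 0.27 in cluster 8, and was called there under both scalings. Il1b was at -1.41 ± 0.21 in cluster 1 and -1.49 ± 0.15 in cluster 8, called under both scalings, and at -0.96 ± 0.13 in cluster 0, called under TMM scaling alone.

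Among the other receptors, Tlr3, which reads double-stranded RNA, fell in cluster 1 (-0.91 ± 0.20), cluster 8 (-1.49 ± 0.31) and cluster 10 (-0.71 ± 0.19). Tlr6, a partner of TLR2, fell in cluster 0 (-1.85 ± 0.14) and cluster 8 (-1.51 ± 0.49), and in cluster 1 (-0.58 ± 0.19) under TMM scaling alone. Tlr1, another partner, fell in cluster 0 (-1.77 ± 0.23). The endosomal DNA receptor Tlr9 (-1.75 ± 0.32) and the flagellin receptor Tlr5 (-1.28 ± 0.36) fell in cluster 1. Of the NF-kB inhibitors, Nfkbia fell in clusters 0 (-1.44 ± 0.14), 1 (-1.12 ± 0.21) and 8 (-1.29 ± 0.18), and Tnfaip3 in clusters 0 (-1.18 ± 0.13), 1 (-0.81 ± 0.20) and 8 (-1.01 ± 0.21). The kinase Nek7, an NLRP3 partner, was called higher in cluster 0 (1.60 ± 0.23, and 2.36 on plain totals). Casp8, Traf6 and Irak2 fell in cluster 0 (-2.36 ± 0.13, -2.09 ± 0.16 and -1.74 ± 0.13) and in cluster 1 (-1.23 ± 0.19, -0.95 ± 0.20 and -0.84 ± 0.18). Further calls were those of the adaptor Ticam2 in cluster 0 (-1.42 ± 0.55, TMM scaling alone), Ninj1 in cluster 1 (-0.87 ± 0.21) and Txnip, which binds NLRP3, in cluster 8 (-0.61 ± 0.19). Some of these calls rest on few counts. Ticam2 of cluster 0 had 11 and 16 UMIs on day 6 and 4 and 8 on day 10. Tlr6 of cluster 8 had 4 and 28 UMIs, then 7 and 13, and Tlr5 of cluster 1 had 65 and 52, then 21 and 32.

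The second comparison was that of the ages. With day as a term, none of the 10 genes passed the edgeR test for age in cluster 10, 8, 1 or 0, where 0.142%, 0.0956%, 0.0982% and 0.208% of all genes did. The same fit with DESeq2 called none of the 10 either. At an unadjusted p under 0.05 the counts were 0 in cluster 10, 1 in cluster 8, 0 in cluster 1 and 3 in cluster 0. The shares just given are at the adjusted threshold and are no background for these counts. At the unadjusted threshold, 356 of all 10562 genes tested passed for age in cluster 10. The smallest p was that of Cd14 in cluster 8 (0.65 ± 0.19 higher in middle-aged libraries, edgeR adjusted p = 0.627), and those of cluster 0 were Casp1 (0.38 ± 0.15), Tlr7 (-0.48 ± 0.21) and Tlr4 (0.28 ± 0.13). Standard errors ran from 0.18 to 0.26 in cluster 10, 0.19 to 0.28 in cluster 8, 0.18 to 0.21 in cluster 1 and 0.13 to 0.21 in cluster 0.

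Within a day, the 2 ages are 1 library each, and the ratio has counting error only. A gene is counted here where the ratio was at least 1.5-fold, its exact 95% interval excluded 0 and the pair held 100 UMIs. In cluster 10 no gene of the 10 met this on day 6 or on day 10, where 12.3% and 3.68% of all genes did. In cluster 1 none did on either day, beside 12.7% and 3.09%. In cluster 8, 1 of 7 genes with enough counts did on day 6 and 2 of 9 on day 10, beside 12.1% and 4.46%. In cluster 0, 0 of 10 did on day 6 and 1 of 9 on day 10, beside 10.6% and 2.85%.

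The gene of cluster 8 on day 6 was Cd14, at 430.1 CPM in the young and 797 CPM in the middle-aged library (log2 ratio 0.89, 95% interval 0.70 to 1.09). On day 10 it was at 187.2 and 242.9 CPM (0.38, 0.20 to 0.55), higher in the middle-aged library again. The neutrophil markers of cluster 8, summed, were 7033 and 10324 CPM on day 6 and 8925 and 3621 CPM on day 10, and their part was not tested. When cells with markers of other lineages were left out, the Cd14 ratio of day 10 in cluster 8 was -0.12. Nlrp3 (0.76, 0.33 to 1.21) and Myd88 (-0.62, -1.09 to -0.17) were those of day 10. In cluster 0 on day 10 it was Casp1, at 47.05 and 73.3 CPM (0.64, 0.40 to 0.88).

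Cd14 was the gene with the most counts in cluster 1, with 22035 and 33470 UMIs on day 6. It was at 988.5 and 1275 CPM there (0.37, 0.34 to 0.39) and at 761.3 and 854.9 CPM on day 10 (0.17, 0.14 to 0.20). In cluster 0 it was 0.14 (0.11 to 0.17) on day 6 and 0.13 (0.09 to 0.17) on day 10. With all cells kept, the middle-aged library was thus above the young one on both days in clusters 8, 1 and 0. The ratio was under 1.5-fold except in cluster 8 on day 6. In cluster 10 it was above on day 10 only (0.25 against -0.01 on day 6). Without cells holding markers of other lineages, cluster 8 was at -0.12 on day 10. Cd14 differed in lymphocyte-like clusters too. On day 6 it was at 10.9 and 18.8 CPM in cluster 2, 14.6 and 49.8 in cluster 4, and 35.2 and 92.5 in cluster 9. On day 10 these were at 9.67 and 9.19, 10.9 and 10.2, and 69.75 and 142.4 CPM. The part of this difference was not tested. Nlrp3 had a ratio of opposite sign on the days: in cluster 10 it was at 175.1 and 130.1 CPM on day 6 (-0.43, -0.63 to -0.23) and at 71.7 and 97.4 CPM on day 10 (0.44, 0.20 to 0.69). Neutrophil markers of cluster 10 summed to 4526 and 1321 CPM on day 6 and 5979 and 3711 CPM on day 10, and microglia markers to 10042 and 6401 CPM and to 6835 and 6714 CPM. Without cells holding markers of neutrophils or lymphocytes the Nlrp3 ratios of cluster 10 were -0.36 and 0.52. In cluster 8 Nlrp3 was higher in the middle-aged library on both days (0.14, -0.27 to 0.57, on day 6). Casp4 of cluster 10 was at 115.2 and 115.4 CPM on day 6 (0.00) and at 46.7 and 66.5 CPM on day 10 (0.51, 0.21 to 0.81). Tlr7 of cluster 10 was at 0.03 (-0.26 to 0.30) and -0.08 (-0.35 to 0.18), and Casp1 there at 0.01 and -0.06, with intervals that include 0 on both days.

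**Figure D4:**
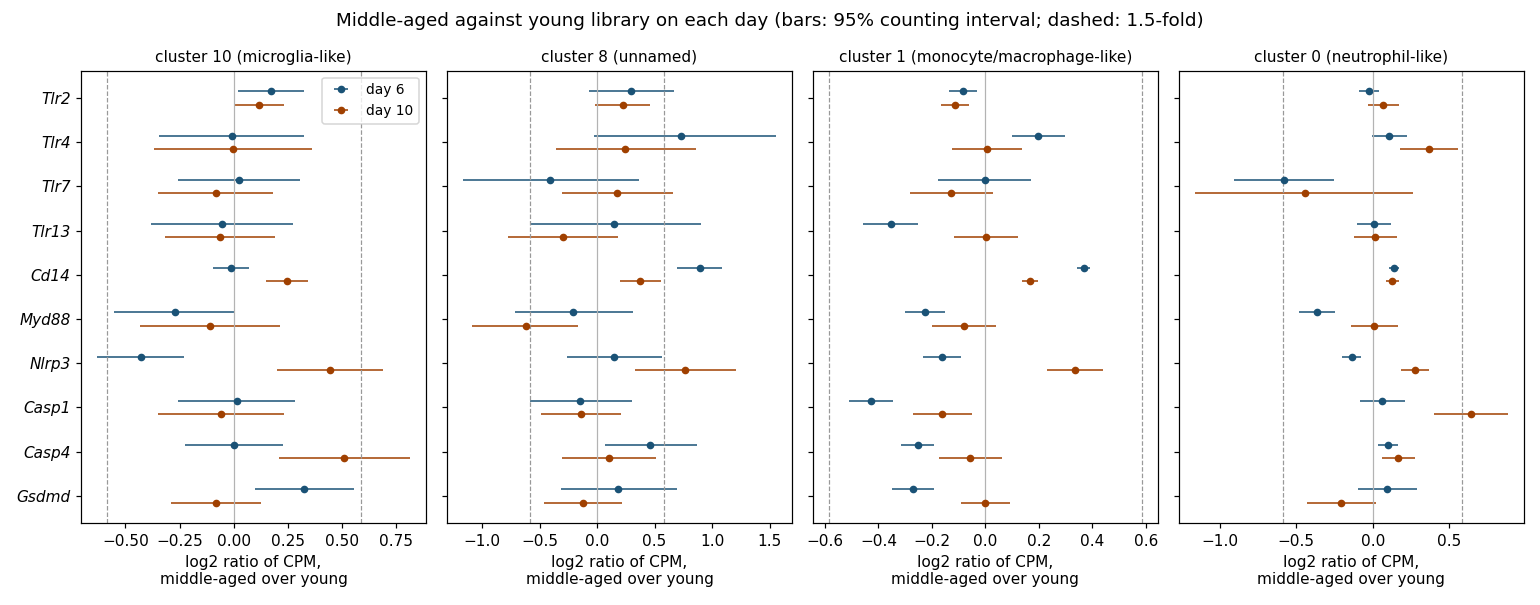
Log2 ratio of CPM between the middle-aged and the young library of a day for each gene in 4 clusters, with exact 95% counting intervals and dashed lines at 1.5-fold; the panels have axes of different range. Most points lie between the dashed lines, and the highest is Cd14 in cluster 8 on day 6, at 0.89.

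Of the 40 other pathway genes, 27 and 28 had enough counts in cluster 10 on days 6 and 10. On day 6 Tlr12 was higher (0.82, 0.30 to 1.35) and Nlrp1b lower (-0.73, -1.32 to -0.17) in the middle-aged library, and on day 10 none passed 1.5-fold. In cluster 8 on day 6 Ninj1, which ruptures the membrane of dying cells, was higher (1.34, 1.01 to 1.69, from 133.6 to 339 CPM), as was Mefv (0.94, 0.31 to 1.63), and Cd180 was lower (-0.62, -1.06 to -0.17). Tlr9 (-0.68) and Nlrp1b (-0.69) were lower in cluster 1 and Irak4 (-0.59) in cluster 0, all on day 6. Enough counts were held by 13, 37 and 23 pathway genes in clusters 8, 1 and 0 on day 6. On day 10 they were 17, 37 and 24, and none passed 1.5-fold. The shares of all genes past the fold are given above by cluster and day. Of the 35, 32, 40 and 35 tested in clusters 10, 8, 1 and 0, edgeR called none for age.

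Bulk sequencing of naive microglia gave 79373420 counts for the young and 76293436 for the middle-aged library. In bulk samples fewer cells of a type and less RNA per cell cannot be told apart. The 9 microglia markers summed to 29803 and 28110 CPM. Per kilobase of exon, Cd14 had the highest level of the 10 genes, at 195.4 and 205.5 CPM per kb, followed by Tlr7 (96.6 and 100.9), Tlr13 (83.8 and 70.6) and Tlr2 (66.8 and 83.7). Nlrp3 was at 46.9 and 50.2 CPM per kb, Gsdmd at 41.3 and 42.5, Tlr4 at 26.0 and 27.4, Myd88 at 23.0 and 24.3 and Casp1 at 19.7 and 20.4. Casp4 was lowest, at 3.95 and 5.12 CPM per kb. Receptors and co-receptor thus stood above both caspases in naive microglia at either age.

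Between the ages no gene of the 10 passed 1.5-fold, beside 14.4% of 14821 genes with 100 counts. The largest ratios were those of Casp4, at 14.6 and 19.0 CPM (log2 ratio 0.38, 95% interval 0.26 to 0.49), and Tlr2, at 201.4 and 252.3 CPM (0.33, 0.29 to 0.36). Tlr13 was the lone gene lower in the middle-aged library, at 360.5 and 303.9 CPM (-0.25, -0.27 to -0.22). Casp1 (0.05, -0.03 to 0.13) and Gsdmd (0.04, -0.0023 to 0.09) had intervals that include 0, and the other 5 genes lay between 0.06 and 0.10. With 1 library an age these intervals hold no spread between mice.

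Of the 38 other pathway genes with 100 counts in the bulk libraries, Il1b (1.34, 1.26 to 1.42, from 23.1 to 58.3 CPM) and Tnfaip3 (0.62, 0.59 to 0.64) were higher in the middle-aged library, and Lbp (-2.30, -2.73 to -1.90) and Nlrc4 (-0.76, -1.11 to -0.42) lower. The median of the list was 0.00085, beside -0.0072 for all genes. Endothelial markers differed in the same direction as Lbp, which encodes the lipopolysaccharide-binding protein: all 6 were lower in the middle-aged library, with a sum of 605.6 and 133.1 CPM, and their part was not tested.

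**Figure D5:**
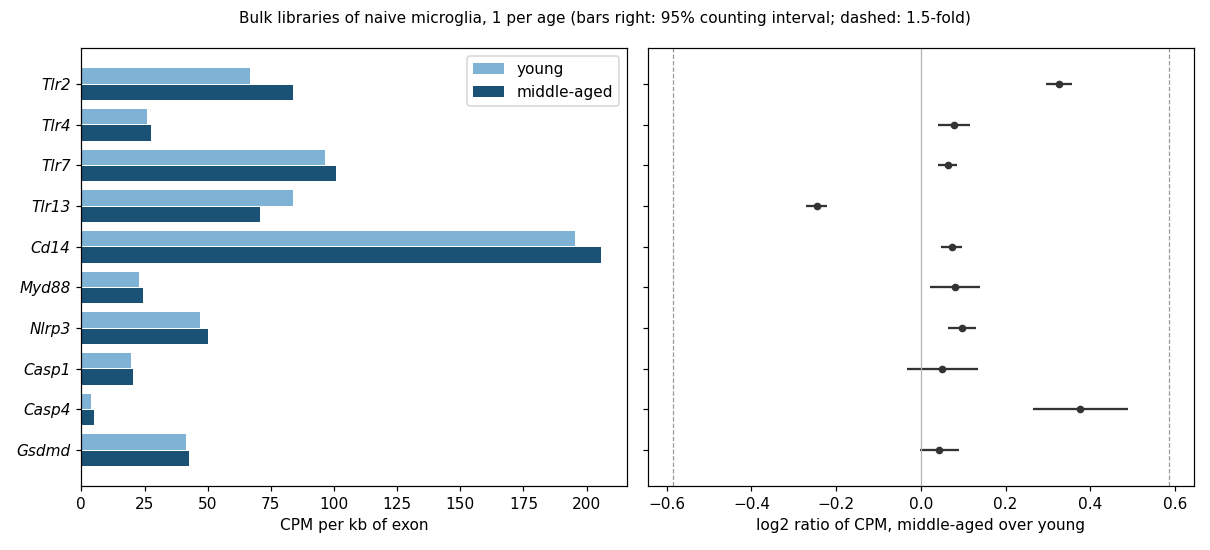
Left, level of each gene in the bulk libraries of naive microglia as CPM per kb of exon, 1 library per age. Right, log2 ratio of CPM between the middle-aged and the young library with exact 95% counting intervals and dashed lines at 1.5-fold, where the 10 points lie inside the dashed lines and Casp4 is farthest right at 0.38.

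The genes with the most similar pattern were sought over 63 cluster-and-library levels, which share libraries and depth, among 6321 genes with 50 CPM in any of them (Pearson r of log2(CPM + 1), as a description). Nlrp3 was most like Ptgs2 (r = 0.966), which encodes cyclooxygenase-2, then Tlr13 (0.946) and Ier3 (0.935). Cd14 was most like Cebpb (0.960), Il1b (0.954) and Tnfaip2 (0.947). Cebpb, a myeloid transcription factor, was also the gene most like Tlr2 (0.945) and the second most like Tlr4 (0.913, after Cd300lf at 0.930). Casp4 was most like the interferon-response factor Irf1 (0.938), Srgn (0.924) and Slfn2 (0.908). Gsdmd was most like Cd68 (0.874), Myd88 like Litaf (0.8905), Tlr7 like Apobec1 (0.832) and Casp1 like Ifi35 (0.809). Within the 10, Tlr13 and Nlrp3 were most alike (0.946) and Tlr7 and Casp4 least (0.273).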

How the data were processed

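Cells were counted by the authors with Cell Ranger 3.1.0 on mm10 and filtered and clustered with Seurat. The deposited single-cell table holds UMI counts per gene and cell, with a library and a cluster number for each cell, and the deposited bulk tables hold counts per gene. According to the study's methods, the bulk reads were aligned with HISAT2 and counted without strand by featureCounts. All columns of per-sample values were used.

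Here, UMIs were summed by cluster and library and divided by their total (CPM, scale 1000000). A level needed 50000 UMIs. Clusters were named from marker lists. No doublet caller was run. Instead, cells holding markers of another lineage were left out as an alternative. These markers were of T, B and NK cells, microglia and neutrophils, with none of monocytes or macrophages. Clusters 10 and 8 were exempt from the microglia markers and cluster 0 from the neutrophil markers. Shares of cells were taken after random thinning to 1000 UMIs, with thinning to 2000 UMIs and no thinning as alternatives.

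Day and age were tested with edgeR 4.0.16 (quasi-likelihood, TMM, genes with 10 counts in 2 libraries, Benjamini-Hochberg threshold 0.05) in R 4.3.3 on the 4 libraries, with DESeq2 1.42.0 as an alternative. As each group is 1 library of pooled mice, p-values measure the spread between these libraries and not that between mice. Ratios of 2 libraries have exact conditional binomial 95% intervals, which cover counting error only. The 1.5-fold rule and its interval were tested on simulated pairs of libraries with known ratios and counting error alone. The clusters in which results are given, 10, 8, 1 and 0, and the genes named outside the 10, were set by rule: genes of the pathway list past the test or the fold, at most 10 per comparison by size (with their values in the other clusters), and the 3 genes most alike. The 10 genes and all lists were chosen with earlier results of these data known. Plain totals in place of TMM, and the leaving out of cells in the edgeR fits, were chosen after seeing the data.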

Additional observations from a re-analysis of the deposited data

Results flagged for a closer look

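Nlrp3, the inflammasome sensor, was lower in the middle-aged than in the young library on day 6 and higher on day 10 in 3 clusters, so that the age ratios had opposite signs on the days. The ratio of day 10 minus that of day 6 (log2) was 0.87 in microglia-like cluster 10, 0.50 in monocyte/macrophage-like cluster 1 and 0.41 in neutrophil-like cluster 0. With 1 library for each age and day the difference was not tested, and the clusters share the same 4 libraries. The day 6 ratio of cluster 1 (-0.16) was -0.04 with TMM factors and -0.05 without cells holding markers of other lineages, and that of cluster 0 (-0.14) was -0.06 with TMM factors. In cluster 8 Nlrp3 was higher in the middle-aged library on both days (0.14 and 0.76). Its day 6 ratio there was 1.00 without cells holding markers of other lineages and 0.50 with every cell given equal weight.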

How the results depend on the processing

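Of the fits of single genes, 755 stayed on their side of the threshold (in 94 of these, 84 for age and 10 for day, the sign turned), 14 gained a call, 30 lost one and 1 reversed: Tlr2 between days in cluster 8, at 0.68 without cells holding markers of other lineages. Genes called for age numbered 15, 8, 12 and 20 in clusters 10, 8, 1 and 0. With no filter on low counts they were 53, 41, 3 and 181, with DESeq2 5 (cluster 10), 2 (cluster 8) and 5 (cluster 0), without the day term 0 in each, with RLE size factors 4 (cluster 1) and 35 (cluster 0), on plain totals 3 (cluster 8) and 58 (cluster 0), and without cells of other lineages 7, 18, 5 and 168. Genes called for day (701, 1122, 3654 and 5218) were 138, 248, 1923 and 2929 with DESeq2, and 1201 in cluster 10 with no filter. Leaving out 1 library, with the tested term alone and 1 library in an arm, so that these counts do not show the effect of the library alone, gave 0 to 1, 0 to 0, 0 to 0 and 0 to 3 genes for age and 194 to 1944, 699 to 1438, 565 to 4910 and 3321 to 5183 for day, beside 0 in each for age and 487, 1076, 3899 and 4854 for day with the tested term alone in all 4 libraries. Of the 10 genes, those past 1.5-fold for age became 1 in cluster 10 on day 10 (cells of other lineages left out, or every cell with equal weight), 0 in cluster 8 on day 10 (such cells left out), 1 in cluster 0 on day 6 (such cells left out, cells with 1000 UMIs only, or totals without mitochondrial and ribosomal genes) and 0 in cluster 0 on day 10 (equal weight). The cause was not tested. No paired analysis was possible because each group held 1 sample.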
